A study of Mus musculus with 6 samples.

Results

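The transcript levels of 7 Wnt target genes were examined in mouse embryonic stem (mES) cells: *Axin2*, *Nkd1*, *Lef1*, *Tcf7*, *Sp5*, *Cdx1* and *T*. They were chosen by name as known transcriptional targets of the canonical Wnt pathway, with earlier results of these data known. They make up 7 of the 16668 genes listed for each library. RNA-seq was performed on E14 mES cells of strain 129/Ola at passage 3-5, and 6 libraries were labelled as 3 groups of 2: control, Ring1B-KD and Dzip3-KD, where KD stands for knockdown by transfected siRNA. Ring1B, encoded by *Rnf2*, and Dzip3 are ubiquitin ligases for histone H2A. According to the labels, the cells of all 6 libraries were kept without feeder cells in N2B27 medium with 1 µM PD0325901, an inhibitor of the kinase MEK, 3 µM CHIR99021, an inhibitor of the kinase GSK3, and 1000 U/ml LIF. The controls therefore carried the same inhibitors as the knockdowns, and no library without CHIR99021 was analysed here. The study calls its libraries biological duplicates, and how the cultures were kept apart is not given in the labels, so p-values measure the spread between these libraries.

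In the canonical Wnt pathway, a destruction complex that contains Axin, Apc, casein kinase and GSK3 marks beta-catenin for degradation. A Wnt ligand bound to a Frizzled receptor, or an inhibitor of GSK3 such as CHIR99021, stops this marking, and beta-catenin then accumulates and acts with transcription factors of the Tcf/Lef family on target genes. In mES cells inhibition of GSK3 helps to sustain self-renewal, in part by relieving repression by Tcf7l1, and *Axin2*, *Sp5*, *Cdx1* and *T* are among the genes commonly read as a sign of pathway activity.

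Each deposited list also carried a number from 1 to 6 and a condition word in its name, and the word differed from the label in 4 of the 6 libraries. The library labelled control 1 was file 1 with the word control, control 2 was file 2 with the word Ring1BKD, and Ring1B-KD 1 was file 3 with the word Dzip3KD. Ring1B-KD 2 was file 4 with the word control, Dzip3-KD 1 was file 5 with the word Ring1BKD, and Dzip3-KD 2 was file 6 with the word Dzip3KD. Files 1 to 3 and files 4 to 6 thus each held every condition word once, whereas both libraries labelled control lay in files 1 to 3 and both labelled Dzip3-KD in files 4 to 6. No label says what the file numbers stand for. Groups below are the labels, the file words are given as a second reading of the same libraries, and which of them is right was not established.

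The transcripts of the siRNA targets were compared with both readings. *Rnf2* was at 30.6, 20.4 and 26.8 RPKM in files 1 to 3 and at 28.8, 19.4 and 28.2 RPKM in files 4 to 6, in file order. It was lowest in the file with the word Ring1BKD in each set, and these are the libraries labelled control 2 and Dzip3-KD 1. *Rnf2* read ratios for the word Ring1BKD against control were 0.668 (interval 0.556 to 0.801) and 0.674 (0.559 to 0.812) in the 2 sets. Both intervals, which cover counting error only, lay below 1. By label, *Rnf2* was higher in Ring1B-KD than in control by 0.15 on the log2(RPKM + 1) scale (limma, adjusted p = 0.965), against the label, and by file word it differed by -0.55 (SE 0.13, limma, adjusted p = 0.232). *Dzip3* was at 2.24, 2.68 and 1.18 RPKM in files 1 to 3 and at 1.89, 1.70 and 1.31 RPKM in files 4 to 6, lowest in the file with the word Dzip3KD in each set. Its difference was -0.47 by label and -0.45 by file word (limma, adjusted p = 0.458 and 0.754). The read ratios of *Dzip3* for the word Dzip3KD against control were 0.527 (interval 0.301 to 0.905) and 0.692 (0.404 to 1.17) in the 2 sets. Each group is therefore named below as the library or libraries labelled so.

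The libraries held 3015349 to 3583612 mapped reads as recovered from the RPKM values (reads scaled to exon length and to the mapped reads of the library), and RPKM values summed to 126356 to 140481. For a transcript of 2 kb, 3 reads were worth 0.419 to 0.497 RPKM, which is taken below as the counting limit. All 10 pluripotency markers were tested, and their summed level was 1200 to 1520 RPKM in files 1 to 3 and 1231 to 1479 RPKM in files 4 to 6, with *Pou5f1* and *Nanog* the highest. Markers of other cells were lower: the fibroblast list summed to 44.0 to 62.1 and 31.3 to 42.9 RPKM, most of it *Vim*, the primitive endoderm list to 2.71 to 4.54 and 4.80 to 5.90 RPKM, and the mesendoderm list to 3.07 to 3.55 and 2.83 to 4.43 RPKM. At 0 in at least 1 library were 2 of 5 fibroblast, 4 of 8 primitive endoderm and 3 of 7 mesendoderm markers. In bulk RNA, fewer cells that express a gene and less RNA per cell cannot be told apart.

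RefSeq promoter windows on build GRCm38.p6, from 250 bases before to 50 bases after the annotated start, were searched on both strands for CTTTGAT and CTTTGAA, core motifs of the Tcf/Lef factors that differ only in their last letter, so that no site counts as both. Of the 7 genes, 6 had a window in the set searched, and 2 of these held a match. No window of *Cdx1* was in that set, so its promoter was not searched, which does not mean that none is annotated. Among all genes with a searched window, 9.88% held a match. Among all 32851 windows searched 8.65% did, 3.73% with CTTTGAT and 5.14% with CTTTGAA. These shares describe the windows searched and not the whole genome. The windows of *Sp5* (chr2:70474673-70474972, plus strand), *T* (chr17:8434173-8434472, plus strand) and *Axin2* (chr11:108920099-108920398, plus strand) are shown because *Sp5* and *T* held a match and *Axin2* is a target that differed between files 1 to 3 and files 4 to 6 and held none. Capitals mark the match. For *Sp5* it was CTTTGAT on the plus strand, 104 bases before the start. For *T* it was CTTTGAA on the minus strand, read here as its reverse complement, 235 bases before the start.
Sp5: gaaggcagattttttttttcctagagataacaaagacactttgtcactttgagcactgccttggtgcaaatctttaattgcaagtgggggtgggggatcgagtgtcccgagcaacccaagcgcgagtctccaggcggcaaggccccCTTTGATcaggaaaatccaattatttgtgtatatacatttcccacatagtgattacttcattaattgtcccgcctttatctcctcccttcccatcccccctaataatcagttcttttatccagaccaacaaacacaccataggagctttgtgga
T: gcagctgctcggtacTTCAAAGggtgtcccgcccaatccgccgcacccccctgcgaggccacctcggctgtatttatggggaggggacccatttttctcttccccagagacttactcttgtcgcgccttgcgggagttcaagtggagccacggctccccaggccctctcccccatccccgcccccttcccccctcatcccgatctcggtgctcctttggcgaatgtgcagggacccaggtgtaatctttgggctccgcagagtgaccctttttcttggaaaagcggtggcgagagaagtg
Axin2: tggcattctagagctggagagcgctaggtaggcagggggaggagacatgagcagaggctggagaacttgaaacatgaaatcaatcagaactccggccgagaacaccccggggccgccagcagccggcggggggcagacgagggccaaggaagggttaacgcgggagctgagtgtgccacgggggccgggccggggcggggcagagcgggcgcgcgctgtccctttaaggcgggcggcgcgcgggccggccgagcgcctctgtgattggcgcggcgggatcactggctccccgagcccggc
A match describes letters only, and the absence of one in the windows of *Axin2*, *Tcf7*, *Lef1* and *Nkd1* says nothing about binding elsewhere.

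First, the levels of the 7 genes were placed side by side as RPKM, which is a level per length. In files 1 to 3, 4 of the genes were well above the counting limit: *Tcf7* at 10.6 ± 2.46 RPKM (SD, n = 3), *Cdx1* at 10.4 ± 2.74, *Axin2* at 8.66 ± 1.41 and *Sp5* at 6.84 ± 2.32. These 4 overlapped with their neighbours in this order. *Nkd1* at 0.305 ± 0.198 RPKM, *Lef1* at 0.239 ± 0.210 and *T* at 0.204 ± 0.104 followed far below and also overlapped. In files 4 to 6 the order was *Tcf7* at 7.77 ± 1.40 RPKM, *Axin2* at 2.29 ± 0.674 and *Cdx1* at 0.348 ± 0.301, with no overlap between neighbours. *Nkd1* at 0.203 ± 0.140 RPKM, *Sp5* at 0.141 ± 0.00701 (1 read in each library, so the SD reflects only depth), *Lef1* at 0.129 ± 0.156 and *T* at 0.0455 ± 0.0787 came last and overlapped with each other and with *Cdx1*. Among all listed genes, *Cdx1* stood at percentile 82.0 in files 1 to 3 and 26.9 in files 4 to 6, *Sp5* at 73.5 and 18.3, *Axin2* at 78.6 and 51.3, and *Tcf7* at 82.3 and 77.0. With CHIR99021 in every library, these levels describe cells labelled as GSK3-inhibited and could not be compared with cells without the inhibitor.

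**Figure D1:**
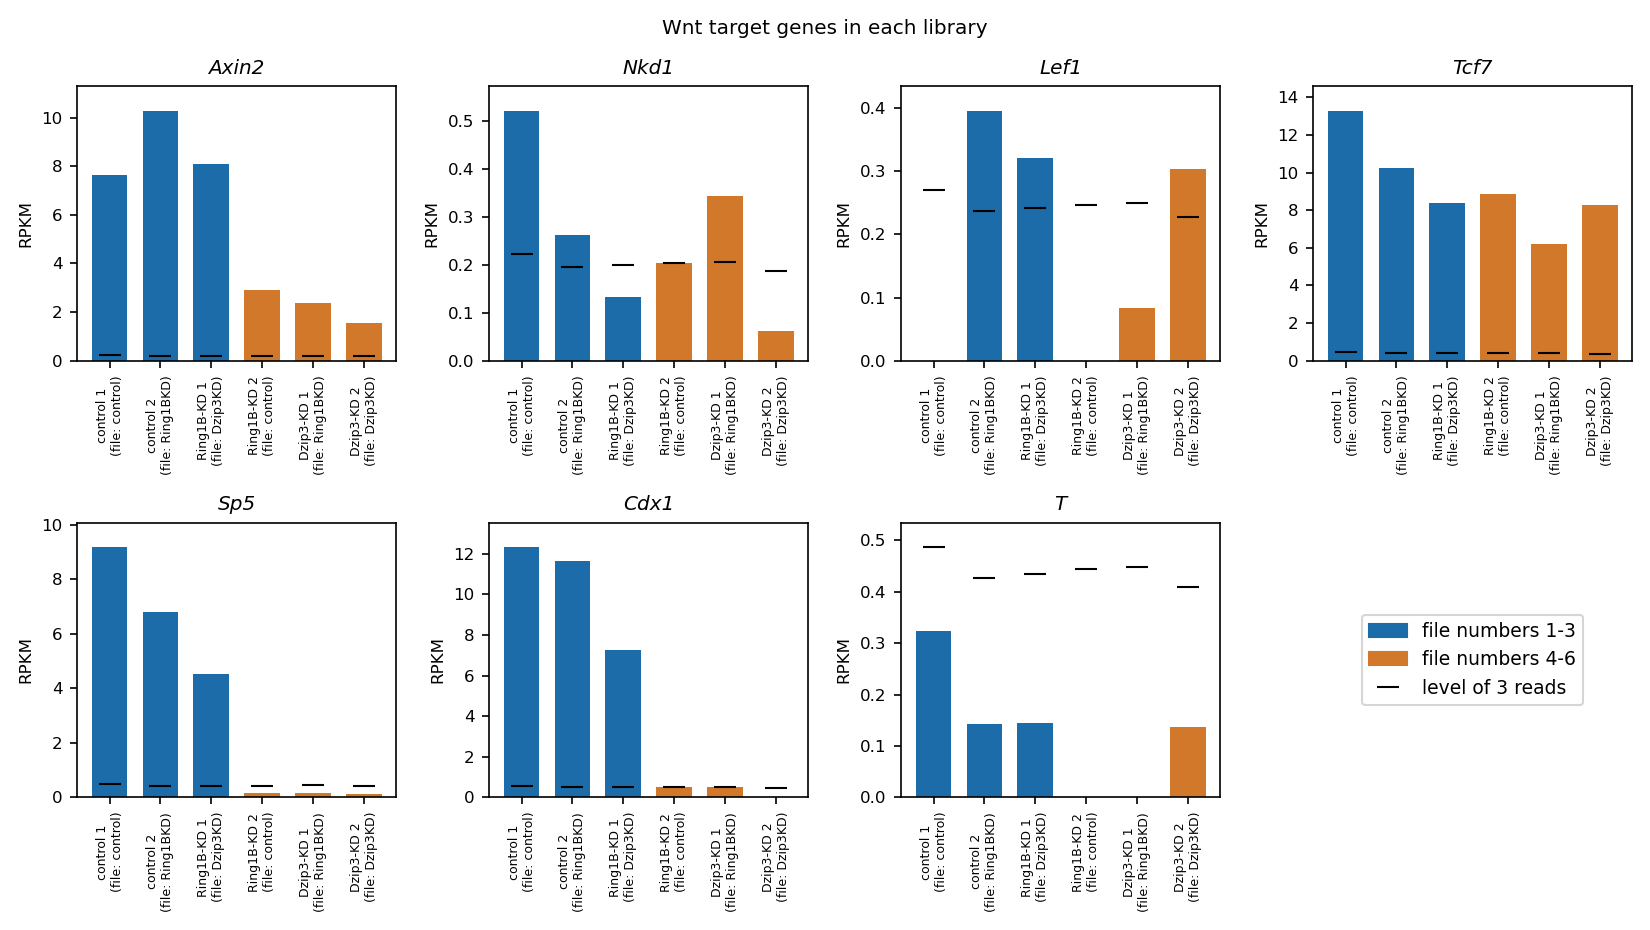
RPKM of the 7 Wnt target genes in each of the 6 libraries, named by label with the condition word of the file in brackets; each panel has its own axis from 0, blue bars are files 1 to 3, orange bars files 4 to 6, and the short line marks the level that 3 reads would give. *Axin2*, *Sp5* and *Cdx1* were higher in every library of files 1 to 3 than in any of files 4 to 6, and *Lef1*, *Nkd1* and *T* lay near the line.

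Among the feedback inhibitors, *Axin2* (ENSMUSG00000000142.9, chr11:108781663-108812097, plus strand, mm9) encodes a scaffold of the destruction complex that is itself induced by the pathway. In file order, its level in files 1 to 3 was 7.63 and 10.3 RPKM in the controls by label and 8.07 RPKM in Ring1B-KD 1, from 98, 150 and 116 reads. In files 4 to 6 it was 2.91 RPKM in Ring1B-KD 2 and 2.37 and 1.57 RPKM in the Dzip3-KD libraries, from 41, 33 and 24 reads. Every library of files 1 to 3 thus lay above every library of files 4 to 6, and the reads per mapped read were 3.84 times as high (exact 95% interval 3.07 to 4.85, counting error only). *Nkd1* (ENSMUSG00000031661.5, chr8:91045243-91118786, plus strand), which encodes a Dishevelled-binding inhibitor, was low, with 7, 4 and 2 reads in files 1 to 3 and 3, 5 and 1 reads in files 4 to 6. Its levels of 0.521, 0.262 and 0.133 RPKM against 0.204, 0.343 and 0.0626 RPKM overlapped, and the ratio of 1.49 had an interval of 0.591 to 3.96.

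The nuclear effectors differed widely in level. *Tcf7* (ENSMUSG00000000782.8, chr11:52065873-52096681, minus strand) encodes Tcf1, which activates targets together with beta-catenin. It was at 13.3, 10.2 and 8.40 RPKM in files 1 to 3 (89, 78 and 63 reads) and at 8.84, 6.19 and 8.28 RPKM in files 4 to 6 (65, 45 and 66 reads). The sets overlapped, since Ring1B-KD 1 lay below Ring1B-KD 2, and the read ratio was 1.35 (interval 1.11 to 1.65). *Lef1* (ENSMUSG00000027985.8, chr3:130813389-130927274, plus strand), which encodes another factor of the family, was low as well, with 0, 5 and 4 reads against 0, 1 and 4 reads. That corresponded to 0, 0.395 and 0.322 RPKM and to 0, 0.0830 and 0.303 RPKM, with 1 library at 0 in each set and a read ratio of 1.86 (interval 0.560 to 7.07).

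The remaining targets encode transcription factors of early development. *Sp5* (ENSMUSG00000075304.2, chr2:70312980-70315786, plus strand) encodes a zinc finger factor of the Sp family. It was at 9.17, 6.81 and 4.52 RPKM in files 1 to 3, from 58, 49 and 32 reads, and at 0.144, 0.146 and 0.133 RPKM in files 4 to 6, from 1 read in each library. The libraries labelled Ring1B-KD were thus on either side, at 4.52 and 0.144 RPKM, and the read ratio between the sets was 47.9 (interval 16.1 to 235, on 139 against 3 reads). *Cdx1* (ENSMUSG00000024619.8, chr18:61178516-61195853, minus strand), a homeobox gene of posterior patterning, was at 12.3, 11.7 and 7.28 RPKM in files 1 to 3, from 65, 70 and 43 reads. It was at 0.519, 0.525 and 0 RPKM in files 4 to 6, from 3, 3 and 0 reads. Both libraries labelled Dzip3-KD and the library labelled Ring1B-KD 2 were at or under 3 reads, and the read ratio was 30.7 (interval 13.8 to 84.7). *T* (ENSMUSG00000062327.3, chr17:8627288-8635361, plus strand), which encodes Brachyury of the primitive streak, had 2, 1 and 1 reads in files 1 to 3 and 0, 0 and 1 reads in files 4 to 6. Its levels of 0.324, 0.142 and 0.145 RPKM against 0, 0 and 0.136 RPKM did not overlap only because 1 read was worth less RPKM in the deeper library. The ratio of 4.14 on 4 against 1 reads had an interval of 0.409 to 204, so a difference was not detectable at this depth.

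The spread of the libraries within a set, which also holds the condition words, was set beside counting error for the 4 genes with reads. In files 1 to 3 the variance was 3.23 times that of counting alone for *Axin2*, 4.05 times for *Tcf7*, 5.35 times for *Sp5* and 4.17 times for *Cdx1*. In files 4 to 6 it was 2.95 times for *Axin2* and 1.83 times for *Tcf7*, while *Sp5* and *Cdx1* had too few reads there to show a spread.

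The groups were then compared by label with limma on log2(RPKM + 1), a scale on which the change of low genes is understated, for the 11538 genes whose mean level reached 0.5 RPKM. *Axin2*, *Tcf7*, *Sp5* and *Cdx1* passed this limit, and *Nkd1*, *Lef1* and *T* did not and were not tested. Comparing libraries labelled Dzip3-KD with controls, the levels were 0.262 ± 0.371 against 12.0 ± 0.464 RPKM for *Cdx1* (SD, n = 2), 0.139 ± 0.00913 against 7.99 ± 1.67 for *Sp5*, 1.97 ± 0.565 against 8.95 ± 1.86 for *Axin2* and 7.24 ± 1.48 against 11.8 ± 2.15 for *Tcf7*. The Dzip3-KD libraries held 1 read each for *Sp5*, so its SD there reflects only depth, and 3 and 0 reads for *Cdx1*. The fitted differences were -3.39 (SE 0.64), -2.97 (SE 0.59), -1.74 (SE 0.37) and -0.63 (SE 0.21), and none passed the test (limma, adjusted p = 0.254, 0.254, 0.300 and 0.323). No gene did in this comparison: 0 of the 4 tested targets and 0% of all genes had an adjusted p under 0.05, whereas at an unadjusted p under 0.05 all 4 were lower, against 6.99% of genes. With only the 4 libraries compared, 24 genes were called, *Sp5* and *Cdx1* among them (limma, adjusted p = 0.0123), as both were without either Ring1B-KD library. The labelled groups did not overlap in all 4, with the Dzip3-KD libraries lower, as for 30.3% of genes. An exact permutation test of 2 against 2 cannot give less than 0.333.

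The 2 libraries labelled Ring1B-KD fell in different file sets. Their spread was wide for *Cdx1* at 3.90 ± 4.78 RPKM (SD, n = 2), *Sp5* at 2.33 ± 3.10 and *Axin2* at 5.49 ± 3.65. For *Tcf7*, at 8.62 ± 0.316 RPKM, it was narrow. Against the same control libraries as above, the fitted differences were -1.87 (SE 0.64), -1.83 (SE 0.59), -0.73 (SE 0.37) and -0.40 (SE 0.21), each with an adjusted p of 0.902 in limma. Here 0 of the 4 targets and 0% of genes were called. At an unadjusted p under 0.05, *Sp5* and *Cdx1* were lower, against 2.88% of genes, and in *Tcf7*, *Sp5* and *Cdx1* both Ring1B-KD libraries lay below both controls, as for 18.9% of genes. Between Dzip3-KD and Ring1B-KD the differences were -1.52 for *Cdx1*, -1.14 for *Sp5*, -1.02 for *Axin2* and -0.24 for *Tcf7* (limma, adjusted p = 0.864 to 0.867), with 0 of 4 targets and 0% of genes called, and the groups did not overlap for *Axin2* and *Tcf7*, as for 20.4% of genes. The median over the 4 targets was -2.36 for Dzip3-KD against control, -1.28 for Ring1B-KD against control and -1.08 for Dzip3-KD against Ring1B-KD, where the medians over all tested genes were -0.07, -0.02 and -0.03.

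With the file set as a term in the label fit, the difference between Dzip3-KD and control moved to -0.95 for *Cdx1*, -0.70 for *Sp5*, -0.53 for *Axin2* and -0.70 for *Tcf7*. That of Ring1B-KD against control moved to -0.65, -0.69, -0.12 and -0.43. Within files 1 to 3, the only set to hold a control library by label, these last values compare the single library labelled Ring1B-KD 1 with the 2 controls. Since the controls and the Dzip3-KD libraries share no file set, label and file set cannot be told apart for that pair, and the fit links the sets only through the 2 libraries labelled Ring1B-KD.

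The libraries were next compared by file number, with the condition word as a term. *Cdx1*, *Sp5* and *Axin2* fell in files 4 to 6. *Cdx1* fell by 3.08 on the log2(RPKM + 1) scale (SE 0.15), *Sp5* by 2.74 (SE 0.20) and *Axin2* by 1.57 (SE 0.17), with adjusted p-values of 0.000324, 0.00194 and 0.00564 in limma. *Tcf7* differed by -0.40 (SE 0.15), at an unadjusted p of 0.0324 and an adjusted p of 0.150 in limma. In this comparison 3 of the 4 tested targets were called, all lower, against 3.67% of all genes called lower (424 genes), 3.94% called higher (455 genes) and 7.62% in either direction. The targets were chosen with earlier results of these data known, so these shares only describe them. Without the filter on low values no gene was called, and each of the 3 targets had an adjusted p of 0.0937 in limma; leaving out 1 library gave 351 to 509 calls in place of 879, these 3 among them each time. Ordered by the fitted fall, *Cdx1* ranked 1, *Sp5* 2 and *Axin2* 13 among the 11538 genes at a pseudocount of 1. With voom on the recovered reads *Sp5* was at -5.00 and *Cdx1* at -4.72, in the other order, and with a pseudocount of 0.1 they were at -4.79 and -4.92. The median over the 4 targets was -2.15 beside -0.04 over all genes. A fitted difference of -1 or below was found for these 3 targets and for 0.589% of genes. The sets did not overlap for the same 3 genes, as for 15.5% of genes in the lower direction, and the exact permutation test gave p = 0.1 for each, the smallest that 3 against 3 allows.

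**Figure D2:**
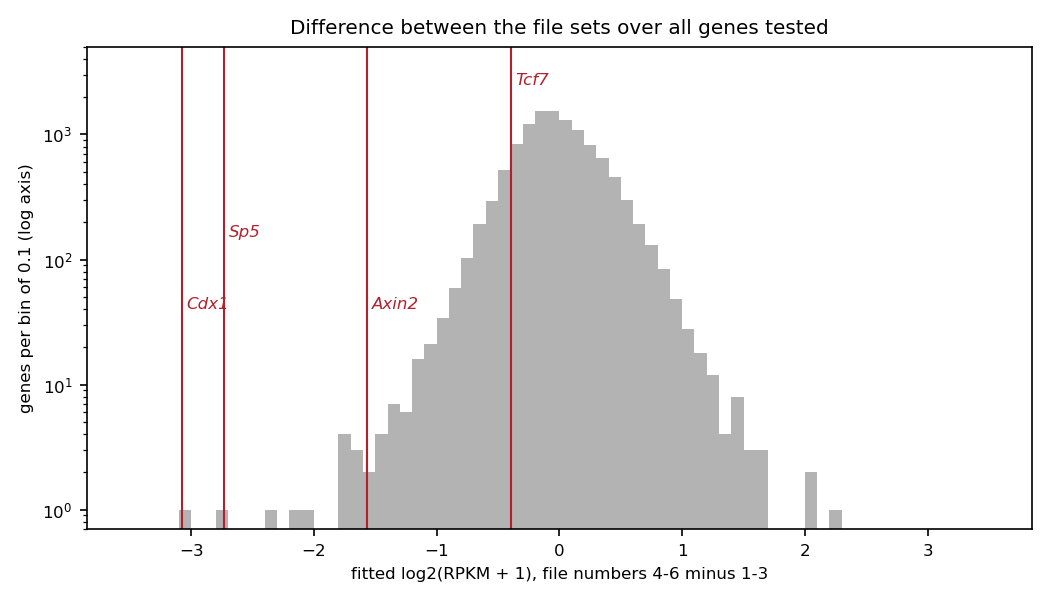
Number of genes (log axis) per bin of 0.1 in the fitted difference of log2(RPKM + 1) between files 4 to 6 and files 1 to 3, over the 11538 tested genes; red lines mark the 4 tested Wnt targets. *Cdx1* at -3.08 and *Sp5* at -2.74 lie at the lower end of the distribution, *Axin2* at -1.57 in its lower tail, and *Tcf7* at -0.40 within its body.

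When the condition word of the file was compared within the file sets, none of the 4 targets passed the test. For the word Ring1BKD against control (by label control 2 and Dzip3-KD 1 against control 1 and Ring1B-KD 2), the differences were 0.08 for *Axin2*, -0.40 for *Tcf7*, -0.19 for *Sp5* and -0.03 for *Cdx1* (limma, adjusted p = 0.617 to 0.975). None of the 4 was among the 48 genes called, 0.416% of those tested, and only *Tcf7* was lower in both sets, as were 40.6% of genes. *Axin2* was higher with the word Ring1BKD in files 1 to 3, at 10.3 against 7.63 RPKM, and lower in files 4 to 6, at 2.37 against 2.91 RPKM. The read ratios were 1.35 (exact 95% interval 1.04 to 1.75) and 0.814 (0.499 to 1.32).

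For the word Dzip3KD against control (by label Ring1B-KD 1 and Dzip3-KD 2 against control 1 and Ring1B-KD 2), the differences were -0.64 (SE 0.18) for *Cdx1*, -0.45 (SE 0.24) for *Sp5*, -0.34 (SE 0.19) for *Tcf7* and -0.27 (SE 0.21) for *Axin2*. *Cdx1* had an unadjusted p of 0.00758, but no gene was called in limma (0 of 4 targets, 0% of genes), and the adjusted p-values of the targets were 0.754 to 0.832. *Cdx1*, *Sp5* and *Tcf7* were lower in both sets, as were 29.5% of genes. For *Sp5* in files 4 to 6, both libraries held 1 read, so the lower RPKM there reflects only depth. In files 1 to 3 the read ratio was 0.591 for *Cdx1* (interval 0.393 to 0.882), 0.493 for *Sp5* (0.310 to 0.772) and 0.633 for *Tcf7* (0.451 to 0.883), all for the library labelled Ring1B-KD 1 against control 1. In files 4 to 6 *Cdx1* and *Sp5* had 3 reads or fewer in every library, so their differences there were not detectable at this depth, and *Tcf7* had a ratio of 0.936 (0.655 to 1.34). Between the words Dzip3KD and Ring1BKD the differences were -0.61 for *Cdx1*, -0.35 for *Axin2*, -0.26 for *Sp5* and 0.06 for *Tcf7* (limma, adjusted p = 0.305 to 0.951). Again 0 of the 4 targets were called, beside 0.676% of genes.

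**Figure D3:**
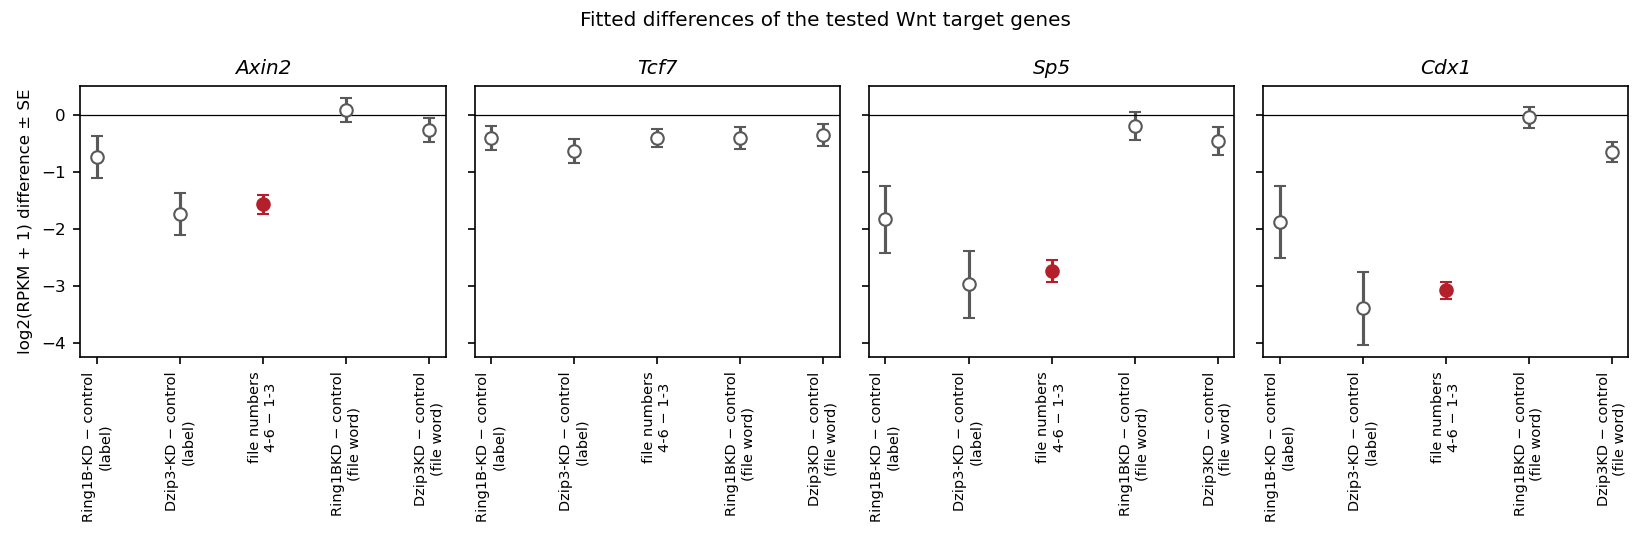
Fitted difference of log2(RPKM + 1) with its SE (bars) for the 4 tested Wnt targets in 5 comparisons: Ring1B-KD and Dzip3-KD against control by label, files 4 to 6 against 1 to 3, and the words Ring1BKD and Dzip3KD against control within the file sets; filled points had an adjusted p under 0.05. *Cdx1*, *Sp5* and *Axin2* were called between the file sets and in none of the other comparisons, and by file word within the sets they lay between -0.64 and 0.08.

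The other genes of the pathway were described from lists ordered by role. Of 18 listed genes for Wnt ligands and their secretion, 4 were tested. Beside 3.67% of all genes called lower, 1 of these 4 was lower in files 4 to 6. This was *Porcn*, the acyltransferase that lipid-modifies Wnt proteins, with 24, 27 and 40 reads in files 1 to 3 and 6, 1 and 2 reads in files 4 to 6, a difference of -2.01 (limma, adjusted p = 0.00564). *Wls*, the Wnt carrier and the highest of the list, had a difference of -0.26 (limma, adjusted p = 0.378). The list had a median of -0.51. Of 15 tested receptors, co-receptors and Dishevelled genes, 0 were called, beside 7.62% of all genes, with a median of 0.10. *Fzd5* and *Dvl2* were the highest of them, and *Fzd2* at 0.65 and *Lrp5* at 0.52 had the smallest unadjusted p-values in limma, 0.00740 and 0.0109.

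Of 9 tested genes for Wnt antagonists and receptor turnover, 4 rose in files 4 to 6 and 0 fell, beside 3.94% of all genes called higher, with a median of 0.54. *Sfrp1*, a secreted Frizzled-related protein that binds Wnt, was at 21.8, 19.9 and 19.7 RPKM in files 1 to 3 and at 35.4, 32.6 and 33.3 RPKM in files 4 to 6. *Notum*, which removes the lipid from Wnt proteins, was at 6.41, 5.92 and 5.87 RPKM and at 13.5, 8.34 and 14.1 RPKM. The differences were 0.70 for *Sfrp1*, 0.91 for *Sfrp2*, 0.85 for *Notum* and 0.68 for *Dkk3* (limma, adjusted p = 0.0129, 0.0192, 0.0236 and 0.0443). In 7 of the 9 the sets did not overlap, with files 4 to 6 higher, as for 13.1% of genes.

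Genes of the destruction complex and beta-catenin itself were not called in either direction (0 of 11, beside 7.62% of all genes, median -0.07). *Ctnnb1*, which encodes beta-catenin, was at 111, 106 and 88.6 RPKM in files 1 to 3 and at 99.9, 89.4 and 102 RPKM in files 4 to 6, with overlap, and *Csnk1a1* was the next highest. The smallest unadjusted p-values in limma were those of *Tnks2*, at 0.43, and *Apc*, at -0.28. Among nuclear cofactors of Tcf/Lef, 0 of 13 were called, beside the same 7.62%, with a median of -0.10. *Aes*, at -0.38, and *Tcf7l1*, the repressor of the family, at -0.11 were the highest by level, while *Tle3* differed by 0.39 and *Pygo1* by 0.48 (limma, adjusted p = 0.0861 and 0.127).

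Of 14 tested genes in a list of other Wnt targets, 1 rose and 2 fell in files 4 to 6, with a median of -0.19. Over all genes, 3.94% were called higher and 3.67% lower. *Gbx2*, a homeobox gene, was at 7.96, 7.82 and 7.95 RPKM in files 1 to 3 and at 1.71, 1.30 and 1.84 RPKM in files 4 to 6. *Myc*, a growth regulator, was at 4.84, 4.13 and 3.58 RPKM and at 0.883, 0.893 and 0.814 RPKM. *Fgf4*, a growth factor of mES cells, went the other way, at 48.5, 37.2 and 32.0 RPKM and at 101, 83.3 and 96.6 RPKM. The differences were -1.77, -1.47 and 1.25 (limma, adjusted p = 0.00251, 0.00564 and 0.00463), and *Ccnd1*, the second highest of the list, differed by 0.41 (limma, adjusted p = 0.180). Among 6 pluripotency genes repressed by Tcf7l1, 2 fell, beside the same 3.67% of all genes, and the median was -0.29. *Tfcp2l1* fell by 0.48 and *Esrrb* by 0.43 (limma, adjusted p = 0.0351 and 0.0404), while *Nanog*, the highest, differed by 0.37 (limma, adjusted p = 0.0715). In the comparisons by label and by file word, 0 genes of these lists were called, beside 0% to 0.676% of all genes.

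**Figure D4:**
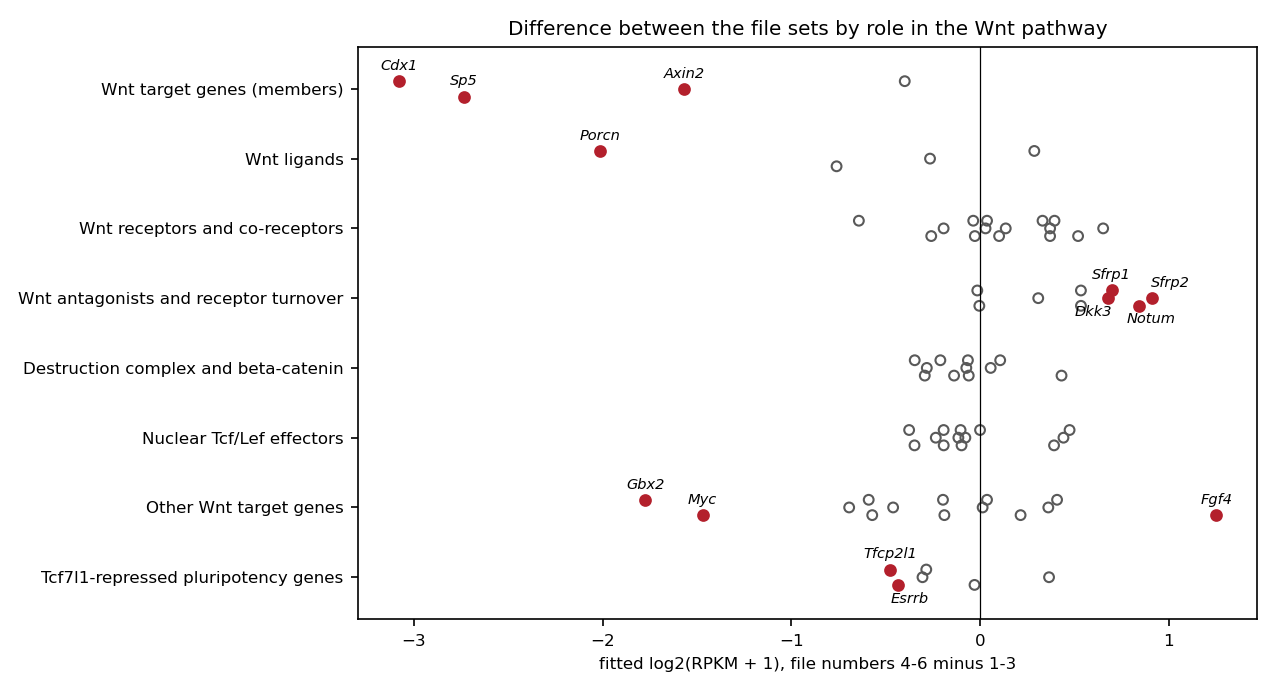
Fitted difference of log2(RPKM + 1) between files 4 to 6 and files 1 to 3 for each tested gene of the Wnt pathway lists, 1 row per list; filled points, named, had an adjusted p under 0.05 and open points did not. *Axin2*, *Sp5*, *Cdx1*, *Porcn*, *Gbx2* and *Myc* lie to the left of -1, the 4 called antagonists between 0.68 and 0.91, and receptors, destruction complex and nuclear cofactors between -0.64 and 0.65.

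Of the 10 pluripotency markers, 1 rose and 3 fell in files 4 to 6, beside 7.62% of all genes called. *Tdgf1* rose by 0.58 and *Utf1* fell by 0.67, beside *Esrrb* and *Tfcp2l1* (limma, adjusted p = 0.0229 and 0.0147). Among the tested markers of other cells, 1 of 2 fibroblast, 1 of 2 primitive endoderm and 0 of 2 mesendoderm markers were called: *Vim* fell by 0.52 and *Col4a1*, a basement membrane collagen, rose by 1.24 (limma, adjusted p = 0.0238 and 0.00809), while *Dab2* at -0.68, *Thy1* at 0.25, *Eomes* at -0.26 and *Gsc* at 0.40 were not called. Their part in the difference of the Wnt targets was not tested.

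Finally, the genes most like *Tcf7*, the target with the highest mean level, were sought among the 5507 genes that averaged 5 RPKM or more. *Efr3a* (Pearson r = 0.993), *Fam133b* (0.991), *Ptbp3* (0.990), *Fzd7* (0.989) and *Rmnd5b* (0.989) came closest over the 6 libraries. These values only describe 6 libraries that share depth and file sets.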

How the data were processed

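Whole-transcriptome sequencing of 6 libraries of E14 mES cells was analysed from lists in which the authors deposited RPKM values per gene, 1 list per library. The study's methods describe TruSeq Stranded mRNA libraries, MiSeq sequencing and alignment to mm9 with unique mapping; whether counting used the strand is not given in the sources used here. The depth was recovered from the steps of low RPKM values and GENCODE M1 transcript lengths. Whole reads were then found for 15515 genes (93.1%), of which 4138 matched an annotated length. For the others the shortest length that gave whole reads in all 6 libraries was taken. Their reads are therefore the fewest possible and can be too few. Groups were the sample labels.

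Differences were tested with limma 3.58.1 (R 4.3.3) on log2(RPKM + 1) with a variance trend, over all 6 libraries, for genes whose mean level was 0.5 RPKM or more, with Benjamini-Hochberg adjustment over all genes tested and a threshold of 0.05. Labels were compared in a model with the label alone, and file sets and condition words in a model with both. Read ratios had exact binomial 95% intervals in SciPy 1.17.1, which cover counting error only. The code was tested on simulated data. Genes named were the 7 targets, the siRNA targets, the genes of each list that were called in any comparison, the 2 highest of each list and, where none was called, up to 2 with the smallest unadjusted p under 0.05, and the 5 genes most like *Tcf7*. The targets and lists were chosen with earlier results of these data known. Replicate numbers of the labels did not pair the libraries. Alternatives were another pseudocount (0.1), no filter, scaling to the 75th percentile, voom on the recovered reads, other terms in the model and leaving out each library. RPKM corrects for depth and length but not for RNA composition.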

Additional observations from a re-analysis of the deposited data

Results flagged for a closer look

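*Axin2* had differences of opposite sign in the 2 file sets when either condition word was set against the word control. The difference between the word Ring1BKD and the word control was lower by 0.60 on the log2(RPKM + 1) scale in files 4 to 6 than in files 1 to 3 (a value of -0.599), and that between the word Dzip3KD and control was lower by 0.68 (a value of -0.677). In files 1 to 3 *Axin2* was at 7.63 RPKM with the word control, 10.3 with Ring1BKD and 8.07 with Dzip3KD, labelled control 1, control 2 and, for the last, Ring1B-KD 1. In files 4 to 6 the level was 2.91 RPKM with the word control (labelled Ring1B-KD 2), 2.37 with Ring1BKD (Dzip3-KD 1) and 1.57 with Dzip3KD (Dzip3-KD 2). Each word had 1 library per set, so the difference was not tested. The read intervals included a ratio of 1 for Ring1BKD in files 4 to 6 (0.499 to 1.32) and for Dzip3KD in files 1 to 3 (0.801 to 1.40), and between the words Dzip3KD and Ring1BKD the sign was the same in both sets (-0.31 and -0.39).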

How the results depend on the processing

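Over 385 recomputed differences of the 4 tested targets, *Rnf2* and *Dzip3*, 364 kept their direction and their side of the threshold. *Axin2*, *Sp5* and *Cdx1* stayed lower in files 4 to 6 in every alternative and were called in each, leaving out any 1 library included, except without the filter on low values, where each had an adjusted p of 0.0937 in limma and 0 genes were called (879 in the comparison as reported). In that comparison voom gave 1698 genes, and leaving out 1 library 351 to 509. For Dzip3-KD against control by label, 0 genes were called; 24 were with only the 4 libraries compared and 0 to 27 when a library was left out. *Sp5* and *Cdx1* were among those called (adjusted p = 0.0123 in limma with the 4 libraries, and 0.0121 and 0.0105 without Ring1B-KD 1 or 2), and *Axin2* was without Ring1B-KD 2 (0.0476). Same-numbered libraries did not deviate together (r = -0.04, -0.24 and 0.04), so the numbers were not taken to pair them; the replicate block called 1 gene for Dzip3-KD against control, none of the targets, and changed no other call. With the Dzip3-KD numbers crossed, added after seeing the data, it called 0 genes. By file word, Ring1BKD against control (48 genes) gave 21 with the pseudocount of 0.1, 0 without the filter, 81 with voom, 0 without the file set term and 3 to 61 leaving out 1 library; Dzip3KD against control (0) gave 4 with voom and 0 to 4; Dzip3KD against Ring1BKD (78) gave 42, 0, 124, 0 and 26 to 172 in the same order. Scaling to the 75th percentile reversed *Cdx1* for Ring1BKD against control by file word (0.057) and *Tcf7* for Dzip3KD against Ring1BKD (-0.0091). Leaving out 1 library, the following uncalled differences changed sign: *Rnf2* by label (-0.13 to 0.43), for Ring1BKD against control *Axin2* (-0.23 to 0.40), *Sp5* (-0.50 to 0.12) and *Cdx1* (-0.074 to 0.0067), for Dzip3KD against control *Axin2* (-0.59 to 0.053), and for Dzip3KD against Ring1BKD *Sp5* (-0.60 to 0.079) and *Tcf7* (-0.23 to 0.34). The causes were not tested. At an unadjusted p under 0.05, limma counted 1411 genes for Dzip3-KD against control, 589 for Ring1B-KD against control, 534 for Dzip3-KD against Ring1B-KD and 752 for Dzip3KD against control. Levels of *Nkd1*, *Lef1* and *T* are limited by depth.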

Other observations

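Among 38 genes of the Wnt lists below the limit for testing, 6 had reads in files 1 to 3 and none in files 4 to 6, and 8 had the opposite. The share of such genes among all untested genes was not determined, so these counts only describe the lists. Those with a read in every library of their set were 2 each way. They lie outside the rule for named genes and were chosen after their values were seen. *Rnf43*, a ubiquitin ligase that removes Frizzled receptors from the cell surface, had 1 and 6 reads in the controls by label, 5 reads in Ring1B-KD 1 and 0 reads in Ring1B-KD 2 and in both Dzip3-KD libraries. *Cdx2*, a homeobox gene related to *Cdx1*, had 4, 3 and 2 reads and 0 reads in the same libraries. *Wnt5a*, a Wnt ligand, had 0 reads in each library of files 1 to 3 and 5, 1 and 13 reads in files 4 to 6, and *Wif1*, a secreted Wnt inhibitor, had 0 reads and then 1, 2 and 1 reads. At this depth a count of 0 does not show that a gene is silent.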
